A study of Mus musculus with 15 samples.

Results

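The transcripts described here encode 10 transcription factors of the core and naive pluripotency network of mouse embryonic stem cells (ESC), Pou5f1 (also called Oct4), Sox2, Nanog, Klf2, Klf4, Klf5, Esrrb, Tfcp2l1, Tbx3 and Zfp42 (also called Rex1). They were picked out by gene symbol, with no measured value in the rule, from a list drawn up with earlier results of these data known. All 10 were found among the 21662 genes of both deposited count tables, and all 10 passed the minimum mean count of 10 in every fit. The study asked what the loss of Hmga1, a chromatin protein that binds AT-rich DNA through AT-hooks, does to the transcriptome. RNA-seq was made from 15 samples in 6 groups and in 2 separate experiments. The KO experiment held WT cells (a, b and c), an Hmga1 KO line (a and b), and Hmga1 add-back and Hmga2 add-back lines (a and b each). The full-deletion experiment held its own WT cells, called WT 2 (a, b and c), and a line with the Hmga1 coding sequence deleted, called full deletion (a, b and c).

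All samples were derived from ESC of a mixed 129Sv and C57Bl/6 background that were cultured in serum with the cytokine LIF, on feeder fibroblasts or gelatine, and the parental line, and so the lines made from it, expressed the BirA biotin ligase. The Hmga1 KO line carried Cas9-made frameshift alleles at the third exon of Hmga1. The add-back lines were that KO line with a biotin-tagged Hmga1 or Hmga2 cDNA placed at a defined site behind a strong ubiquitous promoter. In the full deletion, a pair of further guides removed the coding sequence. The altered lines came from isolated cell clones, and replicates are not tied to separate clones by the labels, so clone and genotype cannot be told apart. The labels call the add-back lines rescues. The study's methods name independent cultures harvested on different days but do not tie each replicate to its own culture. The p-values measure the spread between replicates.

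Oct4 and Sox2 bind DNA side by side and, together with Nanog, form the core of the circuit that keeps ESC undifferentiated. Klf2, Klf4, Klf5, Esrrb, Tfcp2l1 and Tbx3 hold cells in the naive state of the pre-implantation epiblast and are fed by LIF through Stat3, by Wnt through relief of the repressor Tcf7l1, and by PI3 kinase, while Fgf and Erk signalling pushes cells out of that state. Zfp42 is a zinc-finger protein whose transcript is a widely used marker of naive cells and is lost early when they exit.

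The summed counts were 13465399 to 34952136 per sample, and the members took 0.390 to 0.579% of them. Each member had 675 to 46463 counts in every library. In the targeted gene, Hmga1 stood at 464, 276 and 221 CPM (counts per 1000000 counted reads, on scaled totals) in WT a, b and c, at 217 and 96.1 in the 2 Hmga1 KO libraries, at 357, 310 and 355 in WT 2 and at 12.3, 10.9 and 12.1 in the full deletion. Hmga1 was at 184 and 123 CPM in the libraries labelled Hmga1 add-back, lower than the KO in batch a and higher in batch b (log2 fold change 0.04, SE 0.17), so its counts did not check that label. Whether reads of the inserted cDNA are counted at this gene was not tested. Hmga2 was at 249 and 222 CPM in the Hmga2 add-back and at 12.8 to 23.8 CPM in the other 13 libraries. Of 10 feeder fibroblast markers, at most 4 passed the minimum mean count, their summed level was 2.94 to 14.1 CPM, and 1 to 6 of them were at 0 in each library, against a summed level of 7135 to 16744 CPM for 21 other ESC network genes. One library stood apart from its group: WT 2 b had 8.78% of its counts in its 10 highest genes, against 4.67 to 5.50% elsewhere, and fold changes of the full-deletion experiment are therefore given with and without it.

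In NCBIM37 (mm9), the build of the count tables, the members lie on 9 chromosomes, on the plus strand where no strand is given. Sox2 lies at chromosome 3, 34548927 to 34551383, and Esrrb at chromosome 12, 87702067 to 87862578. Pou5f1 lies at chromosome 17, 35642982 to 35647721, Nanog at chromosome 6, 122657507 to 122664651, and Zfp42 on the minus strand of chromosome 8, 44380422 to 44392363. Klf2 shares chromosome 8 (74842932 to 74845555), Klf4 is on the minus strand of chromosome 4 (55540013 to 55545347), and Klf5 is on chromosome 14 (99697910 to 99712624). Tbx3 lies at chromosome 5, 120120678 to 120134733, and Tfcp2l1, annotated as Tcfcp2l1, at chromosome 1, 120524522 to 120581744. The counted reads spanned 47 bases after trimming. A read that fitted several places, up to the limit set in the mapping, was put at 1 of them at random. Reads that fitted more places than the limit were dropped. Over the longest GENCODE M1 transcript of each gene, 36.5% of the read positions of Zfp42, 27.5% of Pou5f1, 20.7% of Nanog and 12.6% of Klf4 had an exact copy elsewhere in the genome. The share was 0.618% or less for the other 6 members, and 0 for Sox2, Klf2 and Tbx3. The transcripts scanned were not the counted exons: Nanog had 2211 bases scanned against 1359 counted, and Klf5 1721 against 3579. These shares are therefore not shares of the counted reads. Levels of the first 4 remain uncertain in their absolute size, and the uncounted or unscanned parts were not checked. The exact copies for Nanog lay at 5859 other loci, and how many of its reads were dropped was not tested.

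RefSeq promoter windows (GRCm38.p6, from 250 bases before to 50 after a transcript start) were found for 8 of the 10 members, in 11 windows; Klf5 and Tbx3 had none. In these windows the AT content was 25.7% (Klf4) to 54.3% (the second window of Pou5f1), against a median of 47.3% over all 32851 windows, and 10 of the 11 lay below that median. Windows of Sox2, Nanog and Zfp42 held the octamer core ATGCAAA on either strand, the letters read by Oct4, which 4.63% of all windows held. The Sox core ACAATG was in windows of Pou5f1, Nanog and Esrrb, against 12.6% of all windows, and the CACCC box CCACCC, read by Klf factors, was in windows of Pou5f1, Nanog, Klf2, Esrrb and Zfp42, against 31.5% of all. No member window held AAGGTCA, the letters of estrogen-related receptors such as Esrrb (4.72% of all windows), or the Stat letters TTCCNGGAA (1.15% of all). The shares of all windows are per window, and by window 4 of the 11 member windows held the octamer, 4 the Sox core and 7 the CACCC box. Genes with 2 windows had 2 chances of a match, and the Sox and CACCC letters of Pou5f1 lay in different windows. The windows overlap for the 2 starts of Nanog, and a match is only a run of letters.

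The 250 bases before the start of the 3 octamer-holding genes are shown because they carry the letters read by Oct4, itself a member of the circuit. Capitals mark the octamer, Sox and CACCC letters, read along the gene or as their reverse complement on the other strand. The positions are Sox2 chr3:34649745-34649994 (plus strand), Nanog chr6:122707239-122707488 (plus strand) and Zfp42 chr8:43307010-43307259 (minus strand), all in GRCm38.p6, written 5′ to 3′ along the gene.
Sox2: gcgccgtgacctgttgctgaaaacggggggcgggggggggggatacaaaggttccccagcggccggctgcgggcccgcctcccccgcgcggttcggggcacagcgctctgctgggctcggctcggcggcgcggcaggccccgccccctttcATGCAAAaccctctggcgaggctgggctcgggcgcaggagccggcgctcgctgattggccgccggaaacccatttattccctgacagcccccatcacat
Nanog: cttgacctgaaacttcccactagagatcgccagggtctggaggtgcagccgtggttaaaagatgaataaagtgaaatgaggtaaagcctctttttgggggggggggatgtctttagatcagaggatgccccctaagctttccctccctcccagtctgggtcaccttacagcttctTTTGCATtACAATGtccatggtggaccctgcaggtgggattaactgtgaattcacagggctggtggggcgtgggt
Zfp42: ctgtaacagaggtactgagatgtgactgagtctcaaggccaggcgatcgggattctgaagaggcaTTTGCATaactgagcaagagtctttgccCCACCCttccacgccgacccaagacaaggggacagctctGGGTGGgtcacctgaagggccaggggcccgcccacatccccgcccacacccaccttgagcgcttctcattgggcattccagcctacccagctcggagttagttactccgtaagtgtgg
In Nanog the octamer and Sox cores stand 1 base apart. The octamer begins 75 bases before the start used here and 151 bases before the other Nanog start. In Sox2 the octamer core begins 99 bases, and in Zfp42 185 bases, before the start.

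**Figure D1:**
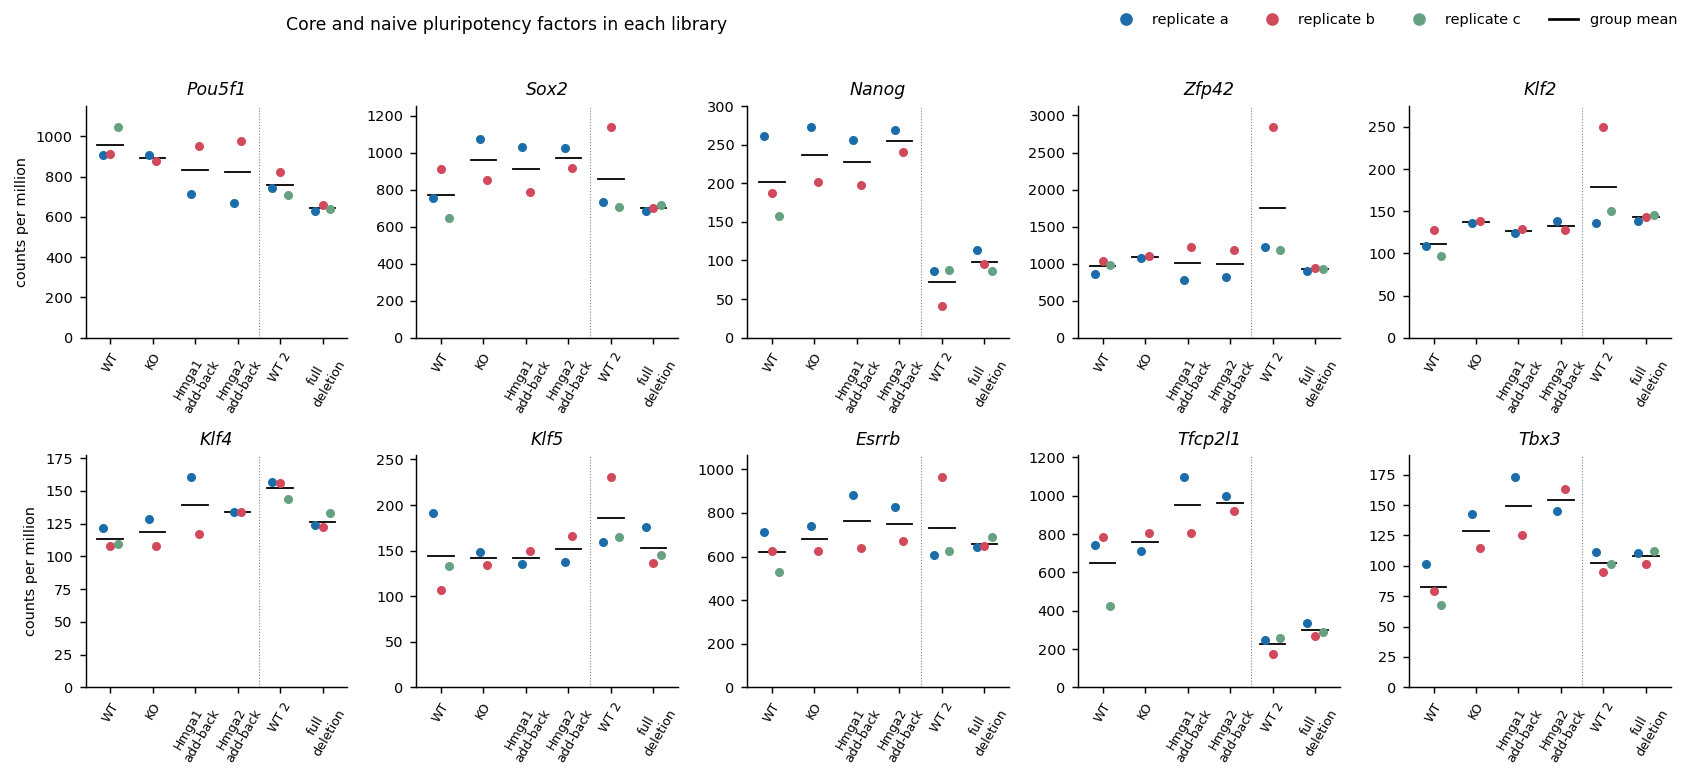
CPM of each factor in every library (y axis, linear from 0), by group on the x axis. Points are libraries colored by replicate letter, bars are group means, and the dotted line parts the KO experiment from the full-deletion experiment, which were scaled separately. WT 2 b lies apart for Zfp42 (2847 CPM) and Nanog (41.4 CPM), and Tbx3 has its lowest mean in WT.

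Levels of different genes were compared per kilobase of exon (RPKM). Zfp42, Pou5f1 and Sox2 had the 3 highest levels in all 6 groups and Tbx3 the lowest. In WT cells Pou5f1 was at 574 ± 47.8 RPKM (SD, n = 3) and Zfp42 at 504 ± 46.5, and these neighbours overlapped over the samples. Sox2 followed at 314 ± 54.1 RPKM, apart from both neighbours. Nanog at 149 ± 39.3 and Esrrb at 111 ± 16.1 RPKM overlapped, as did Tfcp2l1 at 69.0 ± 20.7 and Klf2 at 61.2 ± 8.67, and Klf5 at 40.1 ± 12.1 and Klf4 at 37.1 ± 2.44. Tbx3 was last at 16.3 ± 3.33 RPKM, below every other member in each WT sample.

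The order was the same in the 4 groups of the KO experiment but for swaps of Zfp42 with Pou5f1 and of Klf4 with Klf5. In the full-deletion experiment Nanog stood sixth (53.0 ± 19.6 RPKM in WT 2, 72.4 ± 10.3 in the full deletion) and Tfcp2l1 ninth (24.0 ± 4.60 and 31.5 ± 3.48), against the fourth and the sixth place in the KO experiment. With all 15 libraries scaled together, Nanog reached 46.7 to 124 CPM in the 6 libraries of the full-deletion experiment and 148 to 256 CPM in the 9 of the KO experiment, with no overlap. Tfcp2l1 was likewise at 199 to 364 CPM against 403 to 1023 CPM. Klf2 went the other way, at 149 to 283 CPM against 91.6 to 130 CPM. The WT 2 mean was 0.417 times the WT mean for Nanog, 0.407 times for Tfcp2l1 and 1.90 times for Klf2. It was 2.15 times for Zfp42, 1.58 times for Klf4 and 1.45 times for Tbx3. For these as well, WT and WT 2 did not overlap, though the whole experiments did. WT 2 b is in these means, as the lowest WT 2 library for Nanog and Tfcp2l1 and the highest for Klf2 and Zfp42. The share of all genes without overlap between the experiments was not computed, so the lack of overlap has no background here. These values compare experiments, not genotypes, and were not tested. The experiment cannot be told apart from anything else that differed between them.

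**Figure D2:**
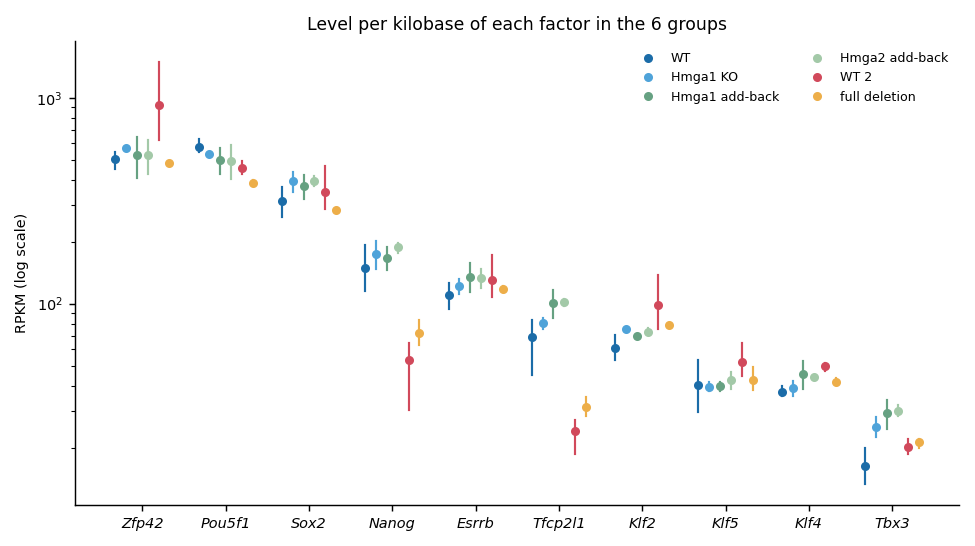
Level per kilobase (RPKM, log axis) of each factor, ordered along the x axis from high to low, with 1 color a group. Points are group means and lines run from the lowest to the highest library. Nanog and Tfcp2l1 sit lower in WT 2 and full deletion than in the other 4 groups.

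The first comparison asked whether the Hmga1 KO changed these factors. At the study's call rule, an adjusted p under 0.01 and at least a 2-fold change, no member was called (0.0216% of the 13912 genes tested were called). At an adjusted p under 0.05 without a minimum fold, 0 of 10 members were called, against 0.0647% of all genes. A single member, Tbx3, had an unadjusted p under 0.05, as did 1747 genes (12.6% of those tested), and DESeq2 called 0 members. In edgeR, in a quasi-likelihood fit that included the batch, the log2 fold changes of the 10 members ran from -0.06 to 0.51 with a median of 0.06, beside -0.01 for all genes tested. In this fit batch c holds WT c alone, so WT c adds nothing to these fold changes. In bulk RNA, fewer cells of a type and less RNA per cell cannot be told apart.

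Of the core factors, Pou5f1 was at 906, 913 and 1047 CPM in WT a, b and c and at 907 and 878 CPM in the Hmga1 KO. One KO library lay within the range of WT and the other below it, and the log2 fold change was -0.02 (SE 0.16, 95% interval -0.39 to 0.34). Sox2 was at 757, 910 and 645 CPM in WT and at 1075 and 853 CPM in the KO. The KO a library was the highest and the groups overlapped, with a log2 fold change of 0.19 (SE 0.16, interval -0.18 to 0.56). Within a batch the KO stood at 142% (a) and 93.7% (b) of WT, so the batches differed in direction. Nanog was at 261, 188 and 157 CPM in WT and at 273 and 201 CPM in the KO. The groups overlapped, and within a batch the KO stood at 105% (a) and 107% (b) of WT. The log2 fold change was 0.08 (SE 0.11, interval -0.18 to 0.34).

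Among the naive factors, Tbx3, a T-box repressor that lies between PI3 kinase signalling and Nanog, had the largest value. It was at 101, 79.4 and 67.9 CPM in WT and at 143 and 114 CPM in the KO. Both KO libraries lay above all 3 WT libraries, and within a batch the KO stood at 141% (a) and 144% (b) of WT. Its log2 fold change was 0.51 (SE 0.16, interval 0.15 to 0.87), with an adjusted p of 0.274 and an unadjusted p of 0.0112 in edgeR. Klf2 (108, 128 and 97.0 against 136 and 139 CPM) and Zfp42 (864, 1037 and 982 against 1073 and 1096 CPM) were the other members whose groups did not overlap, with log2 fold changes of 0.22 and 0.21. These 3 of 10 members stand beside 23.5% of all genes tested whose groups did not overlap. Klf4, Klf5, Esrrb and Tfcp2l1 had log2 fold changes of 0.04, -0.06, 0.02 and -0.01, and their groups overlapped. The interval of Klf5 was the widest, -0.59 to 0.47: it was at 191 CPM in WT a and 107 CPM in WT b. For Klf5 the KO stood at 77.8% of WT in batch a and at 126% in batch b.

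The add-back lines were compared with the same WT libraries, so these 3 comparisons share their controls and are not independent of each other. No member was called by the study's rule in the libraries labelled Hmga1 add-back (0.0144% of all genes) or in the Hmga2 add-back (0.0647% of all genes). At an adjusted p under 0.05 the counts were again 0 of 10, against 0.0431% and 0.165% of all genes. The members' median log2 fold change was 0.11 and 0.19, beside 0.00 for all genes in both. At an unadjusted p under 0.05, Tbx3 was the single member in each, beside 1844 and 2352 genes (13.3% and 16.9% of those tested).

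Tbx3 was at 173 and 125 CPM in the libraries labelled Hmga1 add-back and at 145 and 163 CPM in the Hmga2 add-back. All 4 add-back libraries lay above all 3 WT libraries (67.9 to 101 CPM). The log2 fold changes were 0.72 (SE 0.16, interval 0.36 to 1.08) and 0.79 (SE 0.16, interval 0.43 to 1.15), with adjusted p of 0.142 and 0.106 in edgeR. Both passed with DESeq2's Wald test (adjusted p of 0.0108 and 0.00211; 1.44% and 2.36% of all genes passed), and for the Hmga2 add-back also when only its libraries and the WT were fitted (adjusted p of 0.0113). Against the KO from which they were made, the add-back lines had Tbx3 log2 fold changes of 0.21 (interval -0.15 to 0.57) and 0.28 (interval -0.08 to 0.64).

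Tfcp2l1, a target of LIF and Stat3 signalling, was at 742, 785 and 427 CPM in WT, at 709 and 804 CPM in the KO, at 1100 and 804 CPM in the libraries labelled Hmga1 add-back and at 998 and 922 CPM in the Hmga2 add-back. The add-back libraries lay above all KO and WT libraries, in Hmga1 add-back b by less than 1 CPM over KO b (804.2 against 803.6). The log2 fold changes against WT were 0.31 (interval -0.04 to 0.67) and 0.33 (interval -0.03 to 0.68), and against the KO 0.32 (interval -0.03 to 0.68) and 0.34 (interval -0.02 to 0.70). Klf4, a zinc-finger activator of Nanog under LIF, was at 161 and 117 CPM and at 134 and 134 CPM in the 2 add-back groups, against 122, 108 and 110 CPM in WT. Its log2 fold changes were 0.27 and 0.23, with adjusted p of 0.410 and 0.371 in edgeR. Pou5f1 was at 711 and 952 CPM and at 668 and 976 CPM in the add-back groups, so batch a lay below and batch b within the range of WT. Its log2 fold changes of -0.15 and -0.17 average over batch a, where the add-backs were below WT, and batch b, where they were above. The remaining members had log2 fold changes of -0.05 to 0.21 in these comparisons. Some of these values average over opposite directions. Relative to the WT library of the same batch, Klf5 was at 70.9% (a) and 140% (b) in the libraries labelled Hmga1 add-back. In the Hmga2 add-back it was at 71.9% (a) and 156% (b). Sox2 was at 136% (a) and 86.8% (b) in the former, and at 135% (a) and 101% (b) in the latter. Zfp42 was below WT in batch a and above it in batch b in each line, while Esrrb was above WT throughout.

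Groups did not overlap for 2 of 10 members in the libraries labelled Hmga1 add-back (Tfcp2l1 and Tbx3; 17.8% of all genes) and for 4 in the Hmga2 add-back (those and Sox2 and Klf4; 26.8% of all genes). Set against the KO itself, no member was called in the libraries labelled Hmga1 add-back or in the Hmga2 add-back by either rule. The background there was 0% of all genes by both rules for the first, and 0.00719% and 0.0144% for the second. In edgeR, 390 and 708 genes had an unadjusted p under 0.05, and 0 members did. DESeq2 called 0 members as well. Groups did not overlap for 2 of 10 members (Tfcp2l1 higher, Klf2 lower; 14.8% of all genes) and 3 of 10 (Klf4, Tfcp2l1 and Tbx3; 20.4% of all genes).

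**Figure D3:**
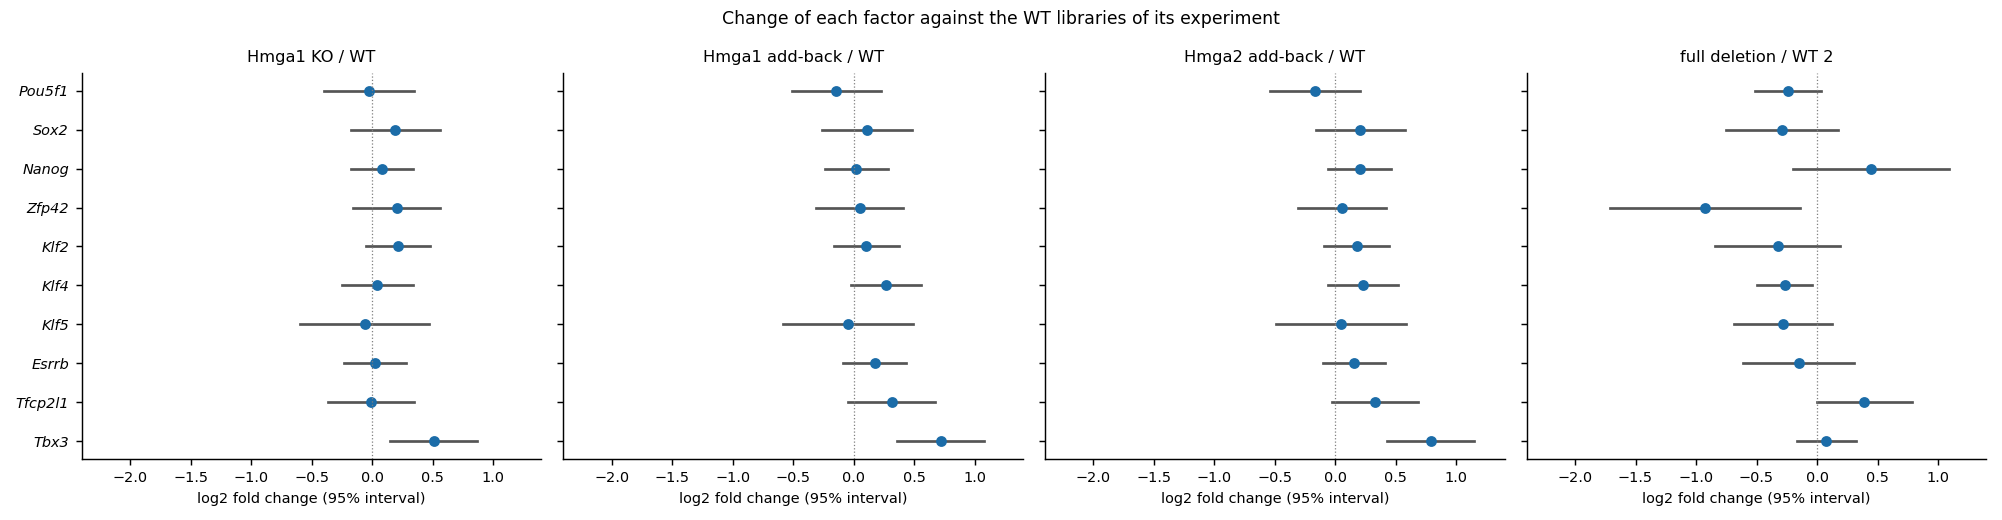
Log2 fold change of each factor (x axis) with its 95% interval from edgeR in 4 comparisons, the first 3 against the same WT libraries. Tbx3 lies at 0.51, 0.72 and 0.79 in the lines of the KO experiment and at 0.08 in the full deletion, where Zfp42 lies at -0.93.

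Batches a and b of the KO experiment, which the study defines by the day of library preparation and the flow cell, each held all 4 groups. Of the 10 members, 3 differed between batches at an adjusted p under 0.05, a share near the 35.6% of all genes, and none by the study's rule (2.34% of all genes). Zfp42 was higher in batch b (18.6% of all genes were), by a log2 fold change of 0.37 (SE 0.11, adjusted p 0.0322 in edgeR). Nanog and Esrrb were lower (17.1% of all genes were), by -0.36 (SE 0.08, adjusted p 0.0108 in edgeR) and -0.30 (SE 0.08, adjusted p 0.0221 in edgeR). Nanog was lower in batch b in all 4 groups, at 71.9 to 89.2% of batch a, and Esrrb in all 4, at 72.3 to 88.4%. Zfp42 was higher in batch b in all 4, at 157% and 146% of batch a in the add-back groups and at 120% and 102% in WT and KO. These 3 genes were picked by their batch difference. It was larger than each of their log2 fold changes against WT in the KO and add-back lines, which were 0.02 to 0.21. The members not picked need not behave so: Tbx3 was at -0.24 between batches, against 0.51, 0.72 and 0.79 in these lines. Without either 1 of the Hmga1 KO libraries, 1 member passed (Zfp42; 19.0% and 19.4% of all genes), without either library labelled Hmga1 add-back 1 did (Nanog; 19.0% and 18.9%), and without either Hmga2 add-back library 2 did (Nanog and Tbx3; 18.8% and 18%). Without WT a or WT b, 4 did (Sox2 besides the 3; 42.1% and 41.7%). Scaling by summed counts gave 4, with Klf4 and Tbx3 (both lower) joining and Zfp42 no longer passing (log2 fold change 0.25, adjusted p 0.0662 in edgeR), while the calls over all genes went from 2581 higher and 2378 lower to 1618 higher and 3486 lower.

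The second experiment compared the full deletion with WT 2. By the study's rule 0 of 10 members were called (0.0687% of the 13098 genes tested), and at an adjusted p under 0.05 also 0 of 10, against 8.25% of all genes (4.47% higher and 3.77% lower). At an unadjusted p under 0.05 there were 3 members (Klf4, Zfp42 and Tfcp2l1) and 4843 genes (37.0% of those tested). The members' median log2 fold change was -0.25, beside 0.04 for all genes and -0.20 for genes with a mean count over 1000. Scaling by summed counts alone moved the median of all genes to 0.32, and 6 of the 7 members that were lower then changed sign (to 0.01 to 0.17), each still below that median. The calls over all genes then went from 586 higher and 494 lower to 544 higher and 120 lower.

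Zfp42 was at 1227, 2847 and 1187 CPM in WT 2 a, b and c and at 903, 935 and 928 CPM in the full deletion. All 3 full-deletion libraries lay below all WT 2 libraries, and WT 2 b was the highest of all. The log2 fold change was -0.93 (SE 0.34, interval -1.71 to -0.14), with an adjusted p of 0.0967 in edgeR. Without WT 2 b it was -0.39 (SE 0.05), with an adjusted p of 3.13e-06 in edgeR. The libraries left in that fit lay close to each other within their groups. The chi-square of the counts per degree of freedom was 5.78 between WT 2 a and c and 4.04 to 6.75 between full-deletion libraries. Between replicates of the KO experiment, which came from different batches, it was 49.3 to 106. The SE and p without WT 2 b measure only the spread between these close replicates. Klf4 was at 157, 156 and 144 CPM against 124, 122 and 133 CPM, with no overlap. Its log2 fold change was -0.27 (SE 0.10, adjusted p 0.0944 in edgeR), and -0.25 (SE 0.06, adjusted p 0.00253 in edgeR) without WT 2 b. Both genes passed with DESeq2 on all 6 libraries (adjusted p of 0.0301 for Zfp42 and 0.0263 for Klf4), but DESeq2 called 24.7% of all genes, and 2 of 10 members is no more than that.

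Pou5f1 was at 745, 823 and 710 CPM in WT 2 and at 628, 660 and 638 CPM in the full deletion, again with no overlap. The log2 fold change was -0.24 (SE 0.12, adjusted p 0.169 in edgeR), and -0.18 (SE 0.05, adjusted p 0.00658 in edgeR) without WT 2 b. Tfcp2l1 was at 247, 176 and 256 CPM against 333, 269 and 289 CPM, so that it was higher in all full-deletion libraries. The log2 fold change was 0.39 (SE 0.17, adjusted p 0.135 in edgeR), and 0.24 (SE 0.07, adjusted p 0.0101 in edgeR) without WT 2 b. The groups thus did not overlap for 4 of 10 members, against 51.3% of all genes tested. Without WT 2 b, 4 of 10 members passed an adjusted p of 0.05, against 42.5% of all genes, so neither share stood above the background.

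Nanog was at 86.8, 41.4 and 88.0 CPM in WT 2 and at 113, 95.8 and 85.8 CPM in the full deletion. WT 2 b was the lowest, and the other libraries of the groups overlapped. The log2 fold change was 0.45 (SE 0.28, interval -0.20 to 1.09), and 0.17 (SE 0.08, adjusted p 0.122 in edgeR) without WT 2 b. Sox2, Klf2, Klf5 and Esrrb were highest in WT 2 b, at 1141, 250, 231 and 967 CPM. Their log2 fold changes were -0.29, -0.33, -0.28 and -0.15 with all libraries and -0.03, -0.01, -0.09 and 0.10 without WT 2 b, so that Esrrb changed sign. Tbx3 was at 111, 94.5 and 102 CPM against 111, 102 and 112 CPM, a log2 fold change of 0.08 (SE 0.10, interval -0.17 to 0.32), and 0.02 (SE 0.06) without WT 2 b.

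**Figure D4:**
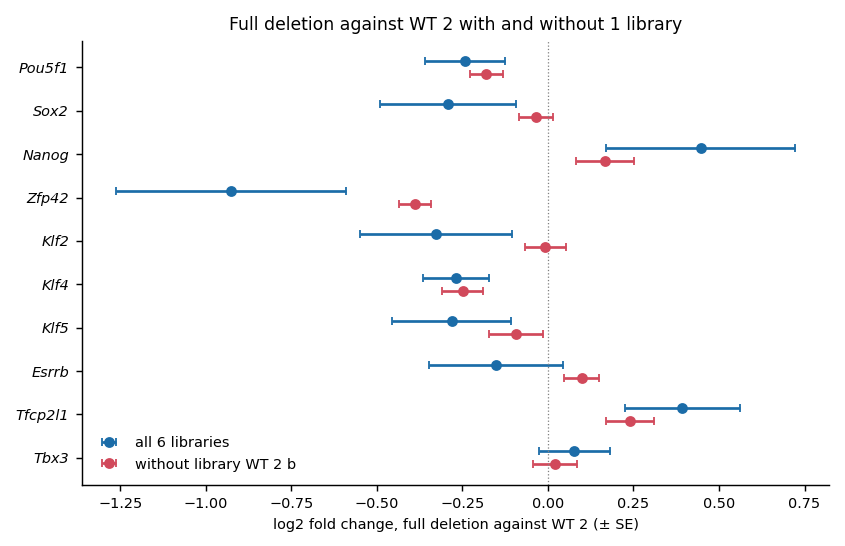
Log2 fold change of each factor between the full deletion and WT 2 (x axis; bars are ± SE from edgeR), with all 6 libraries and without WT 2 b. Zfp42 moves from -0.93 to -0.39 and Sox2, Klf2 and Klf5 move to between -0.09 and -0.01.

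Whether the lines that lost Hmga1 differed in their change was tested in a joint fit of all 15 libraries. No member passed, at 0.0951% of the 13671 genes by the study's rule and 0.307% at an adjusted p under 0.05. DESeq2 called 0 members too. Of the members, 2 had an unadjusted p under 0.05, beside 2512 genes (18.4% of those tested): Zfp42, with a difference of -1.15 (SE 0.45, interval -2.14 to -0.16, adjusted p 0.246 in edgeR), and Tbx3, with -0.44 (SE 0.20, interval -0.88 to -0.01, adjusted p 0.269 in edgeR). Without WT 2 b the difference was -0.63 for Zfp42 (adjusted p 0.0427 in edgeR), against 4.87% of all genes past the same threshold, and -0.52 for Tbx3 (adjusted p 0.105 in edgeR).

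Other genes of the circuit were followed as lists. They held 21 further network genes, 18 signalling genes, 13 primed or lineage genes tested and 4 feeder genes tested. In edgeR, none of these passed an adjusted p of 0.05 against WT in the Hmga1 KO or in either add-back. None passed in either add-back against the KO. The lists were not followed under DESeq2 or the other alternatives in these comparisons. The genes of smallest p in the KO were Gbx2, a homeobox target of Stat3 (log2 fold change -1.72, SE 0.49, adjusted p 0.232 in edgeR), Spry4, a feedback inhibitor of Erk signalling (-0.48, SE 0.18, adjusted p 0.348 in edgeR), the neural factor Sox1 (-1.37, SE 0.36, adjusted p 0.197 in edgeR) and Twist1 among the feeder genes (-1.92, SE 0.51, adjusted p 0.210 in edgeR). Gbx2 was at 208, 126 and 124 CPM in WT and at 37.9 and 86.2 CPM in the KO, with no overlap. It was named for its small p, and 23.5% of all genes tested did not overlap in this comparison. Utf1, a chromatin factor of ESC, had the smallest p of the network genes in both add-back groups against WT, at -0.40 and -0.55. The primed and lineage genes had median log2 fold changes against WT of -0.53 (KO), -0.70 (labelled Hmga1 add-back) and -0.83 (Hmga2 add-back), beside -0.01, 0.00 and 0.00 for all genes, and the network genes had -0.06, -0.21 and -0.23. The signalling genes had -0.04, -0.14 and -0.08, and the 4 feeder genes -0.72, 0.10 and -0.13. Among the primed and lineage genes, Mixl1, Eomes, Sox17, Gata6, Pou3f1 and Gata4 were low, with WT means of 1.59 to 9.25 CPM. Twist1 was lower still, with means of 1.04 CPM in WT and 0.302 CPM in the KO, so its fold change rests on few reads. The list medians were not compared with those of genes at a like level.

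In the full deletion, 8 of 21 network genes fell and 1 rose, against 3.77% of all genes lower and 4.47% higher. The list median was -0.25, beside 0.04 for all genes and -0.20 for genes with a mean count over 1000. The genes of smallest p were Gbx2, which fell from 125, 125 and 128 CPM to 51.7, 60.8 and 58.2 CPM (log2 fold change -1.15, adjusted p 0.00913 in edgeR, the single list gene past the study's rule), Dppa2 (-0.77, adjusted p 0.0202 in edgeR) and Dppa3, a germline and naive marker that rose from 4.11 to 5.54 CPM in WT 2 to 8.16 to 9.95 CPM (0.96, adjusted p 0.0293 in edgeR). Of the 18 signalling genes, Spry4 (-0.55, adjusted p 0.0250 in edgeR) and the Erk-activating ligand Fgf4 (-0.70, adjusted p 0.0279 in edgeR) fell and 16 did not pass. Of 12 primed and lineage genes tested, Otx2, which drives cells out of the naive state, rose (15.8, 7.35 and 14.7 CPM to 31.9, 33.0 and 31.2 CPM; 1.34, adjusted p 0.0334 in edgeR) and the DNA methyltransferase Dnmt3b fell (-0.68, adjusted p 0.0250 in edgeR). Neither of the 2 feeder genes tested passed.

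These list calls rested on the libraries fitted. Without WT 2 b, 5 network genes were higher and 11 lower of 21, 4 signalling genes higher and 10 lower of 18, and 2 primed and lineage genes higher and 2 lower of 12, against 20.5% of all genes higher and 22.0% lower. The list medians were then -0.16, -0.17 and 0.06. Gbx2 was at -1.15, Dppa2 at -0.74, Dppa3 at 0.88, Spry4 at -0.57, Fgf4 at -0.68, Otx2 at 1.07 and Dnmt3b at -0.61, and all 7 passed. Without WT 2 a the counts of 8, 3 and 2 list genes stood against 9.40% of all genes. Without WT 2 c, or without any 1 full-deletion library, 0 list genes passed in edgeR, against 0.0228 to 0.0305% of all genes. Scaled by summed counts, 3 network genes (Dppa3, Gbx2 and L1td1), 0 signalling genes and 1 primed gene (Otx2) passed, and the network median was 0.05, beside 0.32 for all genes. In the joint fit none of these lists held a gene past the threshold.

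Between batches b and a, 8 network genes were higher and 4 lower of 21, against 18.6% of all genes higher and 17.1% lower, led by Rif1 (0.74), Zfp281 (0.60) and Tcl1 (-0.60). Of the 18 signalling genes, 3 were higher and 4 lower, led by Lifr, the LIF receptor (0.55), Fgfr1 (-0.68) and Mapk3 (-0.77), and of 13 primed and lineage genes Dnmt3b was higher (0.47). None of the 4 feeder genes tested passed. Scaled by summed counts, 7 network genes were higher and 4 lower, 2 signalling genes higher and 5 lower, Dnmt3b did not pass and 1 feeder gene, Thy1, was lower, against 11.6% of all genes higher and 25.1% lower.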

How the data were processed

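RNA-seq libraries (rRNA-depleted, stranded, 50-base single-end reads) were prepared from 15 mouse ESC samples. The authors mapped reads to mm9 with QuasR, using Bowtie and no spliced alignment, after removing 3 bases. They kept 1 random alignment of multi-mapping reads, and reads that fitted more places than a set limit were dropped. Whole-number counts per UCSC knownGene gene on the sense strand were deposited. The submitters' notes also name bcl2fastq 2.17. No column of per-sample values was left unused. Counts were normalised by TMM and tested with edgeR 4.0.16 in R 4.3.3 (quasi-likelihood, Benjamini-Hochberg over all genes whose mean count reached 10). The KO experiment was fitted with the batch letter, and the full-deletion experiment without it. In the KO experiment same-letter samples deviated together, with correlations of 0.321 to 0.758, and the letter is the study's batch. CPM use TMM-scaled totals and RPKM the exonic width in the deposited tables. Intervals are from the fitted SE at 95%. The tools were tested on simulated data. DESeq2 1.42.0 and limma 3.58.1 served as alternatives, with another scaling or filter, fewer groups and each replicate left out. For the other lists, leaving out full-deletion replicates and scaling by summed counts were added after the data were seen. Copies elsewhere were sought with BLAST+ 2.17.0. Named genes were all members, and of each other list at most 3 genes of smallest p past an adjusted p of 0.05, or 1 where none passed. Members and lists were chosen with earlier results of these data known.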

Additional observations from a re-analysis of the deposited data

How the results depend on the processing

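No member was called by the study's rule under any alternative run. At an adjusted p under 0.05, DESeq2 gave 1 member (Tbx3) in each add-back group against WT and 2 in the full deletion, and fitting only the 2 groups gave 1 in the Hmga2 add-back against WT. With a replicate left out, the number of members past that threshold ran from 1 to 4 between batches, from 0 to 4 in the full deletion and from 0 to 1 in the difference between the lines, the highest of the last pair without WT 2 b. Without the replicate block the KO experiment still gave 0 members in its 5 genotype comparisons, and the log2 fold change of Tbx3 in the KO was 0.634. In the full deletion the letters did not pair the samples (correlations 0.0639, 0.0703 and -0.0546), and the replicate block gave 0 members and 396 genes, against 1080 without it. DESeq2 called 3232 genes there, summed counts 664, and leaving out a replicate gave 3 to 5592. In the 3 lines against WT, edgeR called 9, 6 and 23 genes, DESeq2 199, 201 and 328, fitting only the 2 groups 68, 5 and 350, and leaving out WT b 736, 806 and 1312, with 0 members there.

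Of 1340 log2 fold changes under an alternative, 61 changed sign, none of them past the threshold before or after, and the cause was not tested. Scaling by summed counts gave, in the full deletion, Pou5f1 0.0525, Sox2 0.0329, Klf2 0.00772, Klf4 0.0191, Klf5 0.0346 and Esrrb 0.172. In the difference between the lines it gave Pou5f1 0.0693, Klf5 0.0799 and Esrrb 0.138, in the KO Tfcp2l1 0.000253, in the Hmga2 add-back against the KO Klf2 0.00473, and between batches Klf2 -0.0758. Without the replicate block Tfcp2l1 was at 0.216 in the KO. The other sign changes came from leaving out a replicate, with these lowest and highest log2 fold changes. In Hmga1 KO against WT, ranges were Esrrb -0.0464 to 0.104, Klf5 -0.473 to 0.468, Pou5f1 -0.216 to 0.15, Sox2 -0.0663 to 0.484, Tfcp2l1 -0.191 to 0.157 and Zfp42 -0.0306 to 0.42. In the libraries labelled Hmga1 add-back against the KO, ranges were Klf5 -0.18 to 0.182, Pou5f1 -0.302 to 0.0572, Sox2 -0.257 to 0.0637 and Zfp42 -0.379 to 0.0651. In the libraries labelled Hmga1 add-back against WT, ranges were Klf2 -0.0209 to 0.233, Klf5 -0.471 to 0.461, Nanog -0.0507 to 0.0995, Pou5f1 -0.29 to 0.00552, Sox2 -0.157 to 0.401 and Zfp42 -0.142 to 0.218. In the Hmga2 add-back against the KO, ranges were Klf2 -0.144 to 0.0644, Klf5 -0.182 to 0.383, Nanog -0.0161 to 0.262, Pou5f1 -0.356 to 0.0751, Sox2 -0.103 to 0.136, Tbx3 -0.0115 to 0.556 and Zfp42 -0.372 to 0.0859. In Hmga2 add-back against WT, ranges were Klf5 -0.383 to 0.563, Pou5f1 -0.382 to 0.0491, Sox2 -0.0435 to 0.501 and Zfp42 -0.0638 to 0.182. In batch b against batch a, ranges were Klf2 -0.0101 to 0.108, Klf5 -0.282 to 0.0979 and Tfcp2l1 -0.164 to 0.0514. In the difference between the lines, ranges were Esrrb -0.321 to 0.0385 and Klf5 -0.762 to 0.186. In full deletion against WT 2, ranges were Esrrb -0.28 to 0.0986. Groups of 2 or 3 libraries and the spread that WT 2 b adds limit all values.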
